A study of Mus musculus with 7 samples.

Results

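The CC chemokine ligand genes were examined in retinal microglia (rMG) sorted from unlasered and lasered mice. The 10 genes, Ccl2, Ccl3, Ccl4, Ccl5, Ccl6, Ccl7, Ccl8, Ccl9, Ccl12 and Ccl24, were chosen by symbol and not by their values, and each matched 1 of the 40743 genes of the deposited table. 9 of them passed the filter on low values, a minimum of 1 CPM (a read count scaled to the total of its library) in 3 or more libraries, which 17496 genes passed in all. Ccl8 was the member that did not pass.

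CC chemokines are small secreted proteins, named for a pair of adjacent cysteines, that bind G protein-coupled receptors and attract leukocytes along a gradient. Microglia and macrophages release several of them upon activation, and Ccl2 and its relatives recruit Ccr2+ monocytes into the injured retina. Most of the mouse genes lie in a cluster on chromosome 11, and each ligand binds 1 or more receptors that are in part shared with other ligands.

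The RNA-seq data comprised 7 libraries, of which 3 were made from unlasered mice and 4 after laser-induced choroidal neovascularisation, a model in which laser burns at the back of the eye lead to vessel growth from the choroid. Retinae of the lasered mice were taken 7 days after the laser. Both groups had the genotype Irf8-/- Cx3cr1GFP/+ (Irf8 KO), that is, they lacked the transcription factor Irf8 in all cells and carried a GFP reporter in place of 1 copy of Cx3cr1, on a C57BL/6J background free of the Crb1 mutation. Each sample was a pool of rMG from 3 to 4 adult mice, gated as CD45low CD11b+ Cx3cr1GFP/+ cells negative for Ly6C and Ly6G, with 10000 cells on average. The ages of the mice in these groups are not given in the sources used here. For lasered mice only the central 70% of the retina was used, so the effects of the laser and of the dissected area cannot be told apart. Since the libraries are of bulk sorted cells, more cells of a type and more RNA per cell cannot be told apart either. Libraries of wild-type mice were not analysed here.

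Depth ranged from 20427558 to 36022954 reads in unlasered and from 37133297 to 45919042 reads in lasered libraries, so the depths of the groups did not overlap. Irf8 itself was listed at 463 to 582 CPM in all 7 libraries, with a log2 fold change of -0.04 (limma, adjusted p = 0.875), although all are labelled Irf8 KO. Its reads were listed only jointly with Gm20388, and the table holds 1 value per gene, so the deleted part was not seen separately. The 9 listed marker genes of microglia summed to between 15380 and 22740 CPM in every library, and 0 of the 8 tested were called in limma and edgeR (3 were lower at an unadjusted p under 0.05 in limma, and DESeq2 called 1 lower). Markers of rod photoreceptors summed to between 1843 and 17080 CPM in unlasered libraries and between 261 and 902 CPM in lasered ones, and 9 of 10 were lower after the laser. This count was 1 without lasered 2 or lasered 3, 3 without lasered 4, 5 without unlasered 3 and 1 with no filter on low values.

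Of the 9 tested CC ligand genes, 4 were higher after the laser (Ccl2, Ccl4, Ccl5 and Ccl12) and 1 was lower (Ccl24) at an adjusted p under 0.05 (limma on log2(CPM + 1), Benjamini-Hochberg over all tested genes). Among all 17496 tested genes, 3.86% were called higher and 3.07% were called lower. The same 5 genes were those whose lasered and unlasered libraries did not overlap. In all tested genes, every lasered library lay above every unlasered library for 10.4% and below for 10.7%. The median log2 fold change was 0.86 over the 9 members and -0.01 over all tested genes, and 7 of the 9 had a positive value. Under 16 other settings of the fit, the calls of Ccl4 and Ccl5 held in 15 and that of Ccl24 in 14, whereas that of Ccl12 held in 6 and that of Ccl2 in 5. Depth and rod markers also differed between the groups, and their part in these differences was not tested.

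**Figure D1:**
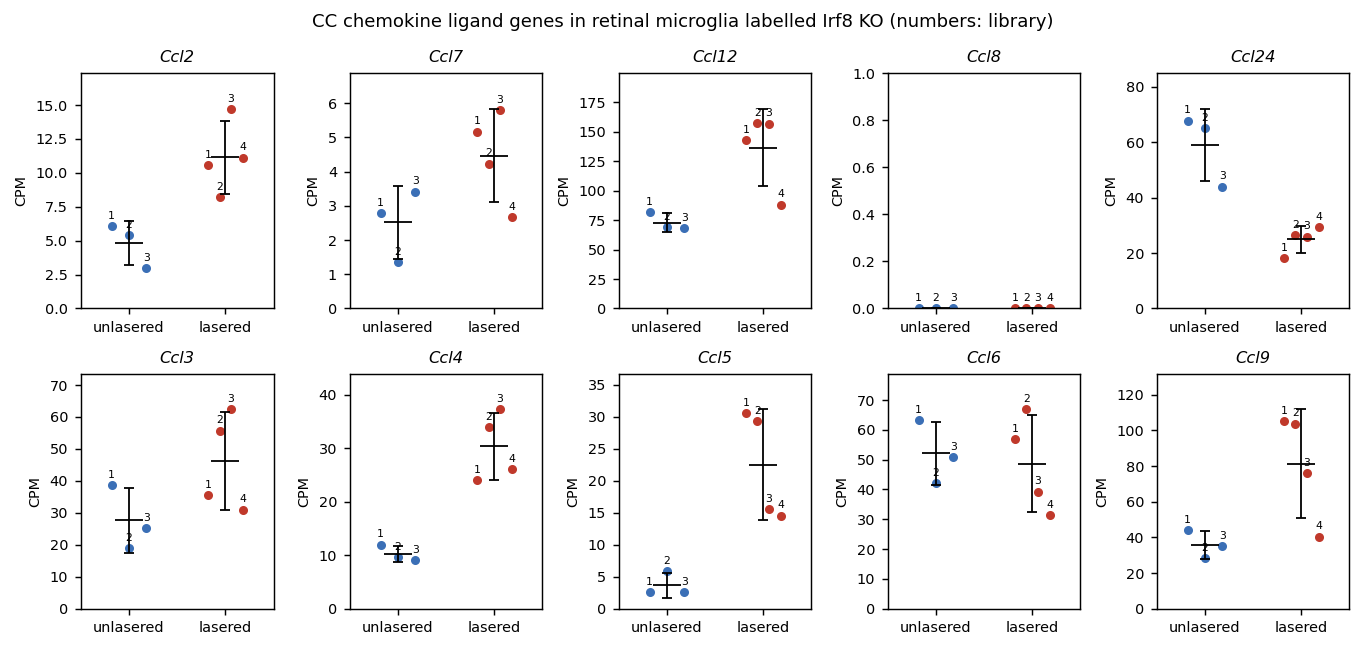
Level of each CC chemokine ligand gene in CPM (vertical axis, from 0) in 3 unlasered (blue) and 4 lasered (red) libraries; the numbers name the library, the long dash is the mean and the bar the SD. Ccl2, Ccl4, Ccl5 and Ccl12 were higher in every lasered library than in any unlasered one, Ccl24 was lower, and Ccl8 had 0 reads throughout.

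Ccl2, Ccl7, Ccl12 and Ccl8 encode the monocyte chemoattractant proteins of the mouse and lie in 1 stretch of chromosome 11 (GRCm38, protein-coding, all on the plus strand). Ccl12 spans 82101845 to 82103400 and Ccl8 spans 82115185 to 82116799. Promoter sequences were taken from RefSeq (GRCm38.p6), which matched 5 of the 10 members, Ccl3, Ccl6, Ccl8, Ccl9 and Ccl12. Those of Ccl2, Ccl4, Ccl5, Ccl7 and Ccl24 were not used here. The 150 bases before the start are shown for Ccl12 (chr11:82101695-82101844, plus strand), the most abundant member, and for Ccl8 (chr11:82115035-82115184, plus strand), its neighbour without reads. They are written on the strand of the gene, and capitals mark the matches named below.
Ccl12: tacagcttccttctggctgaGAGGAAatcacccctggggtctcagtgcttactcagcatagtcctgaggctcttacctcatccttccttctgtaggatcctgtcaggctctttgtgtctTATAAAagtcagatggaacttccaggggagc
Ccl8: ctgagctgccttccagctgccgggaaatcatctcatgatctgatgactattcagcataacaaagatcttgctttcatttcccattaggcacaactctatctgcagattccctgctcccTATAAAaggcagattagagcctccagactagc

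Both promoters held the TATA box TATAAA, at -31 in Ccl12 and at -32 in Ccl8, counted from the first base before the start as -1 to the first base of the match. TATAAA was found on either strand in 13.6% of 32851 promoters of the same length, 300 bases from 250 before to 50 after the start. The PU.1 core GAGGAA (PU.1 is a factor that partners Irf8 in myeloid cells) was found at -130 in Ccl12 and, in the stretch not shown, on the other strand at -240 in Ccl8. It was held by 28.3% of all promoters. No match was found in either for the interferon regulatory factor element GAAANNGAA (8.56% of all promoters), the AP-1 element TGANTCA (7.81%), the NF-kB forms GGGANTTTC, GGANTTTCC, GGANTTCCC and GGAANTCCC (4.24% held at least 1) or the C/EBP forms TTGNNCAA and TTNCGCAA (6.98%). All motifs were searched on both strands, and the set was settled after a first search of these promoters. A match is a description of letters and not a site.

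Ccl12, a ligand of Ccr2 found in mice, was the member with the highest level. It was at 81.9, 68.8 and 68.1 CPM in unlasered libraries 1, 2 and 3, and at 143, 157, 157 and 88.3 CPM in lasered libraries 1 to 4. All lasered libraries lay above the unlasered ones, with lasered 4 nearest to them. The mean rose 1.87-fold, from 72.9 ± 7.77 (SD, n = 3) to 136.5 ± 32.8 CPM (SD, n = 4). The log2 fold change was 0.86 (SE 0.21, 95% confidence interval 0.39 to 1.34, limma adjusted p = 0.0425). The call was lost when any library other than lasered 4 was left out (adjusted p up to 0.119), and without lasered 4 the log2 fold change was 1.06 (adjusted p = 0.0128). Monocyte markers summed to 109, 90.1 and 362 CPM without and 939, 735, 630 and 262 CPM with the laser. Fn1, a matrix gene, made up most of this sum in every library except unlasered 1, where it was at 41.1 CPM. Without Fn1 the other 8 genes amounted to 68.1, 24.5 and 74.7 CPM in unlasered libraries. In lasered libraries they amounted to 163, 210, 36.9 and 14.2 CPM, so that lasered 3 lay within and lasered 4 below the unlasered range. Of 7 tested, 1 was called higher (Fn1, whose groups overlapped), and this call was lost in edgeR and without lasered 1, 2 or 3 or unlasered 1 or 2. Ly6c2, which defines classical monocytes, was at most at 0.891 CPM. The cells had been gated as negative for Ly6C, so this low level cannot tell whether other monocyte-derived cells were present. Ms4a4c of the same list was at 4.26, 1.67 and 5.97 CPM in unlasered libraries. It was at 26.6, 26.5, 3.16 and 2.13 CPM in lasered libraries 1 to 4. The part of monocytes in the level of Ccl12 was not tested.

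Ccl2 (82035571 to 82037453), the major monocyte attractant and a Ccr2 ligand, was much less abundant. Unlasered libraries 1, 2 and 3 had 6.07, 5.40 and 2.97 CPM, and lasered libraries 1 to 4 had 10.6, 8.22, 14.7 and 11.1 CPM. The groups did not overlap, and these values rest on 107 to 185 reads in the unlasered and 369 to 675 reads in the lasered libraries. The mean rose 2.32-fold from 4.81 ± 1.63 to 11.2 ± 2.68 CPM, with a log2 fold change of 1.08 (SE 0.26, interval 0.49 to 1.67, limma adjusted p = 0.0425). The call held only without unlasered 1 (adjusted p = 0.048) and was lost when any other library was left out, with an adjusted p of up to 0.105. Gm17268, a gene on the opposite strand, spans Ccl2, with 0 bases of shared exon.

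Ccl7 (82045712 to 82047525), which binds Ccr1, Ccr2 and Ccr3, was the least abundant member with reads. Its values were 2.79, 1.34 and 3.41 CPM in unlasered libraries and 5.17, 4.23, 5.79 and 2.67 CPM in lasered ones. Lasered 4 lay within the unlasered range, and the other 3 lay above it. The log2 fold change of 0.65 (SE 0.29, interval -0.01 to 1.31) did not pass the test (limma adjusted p = 0.229). Ccl8, which acts through Ccr8 in mice, had 0 reads in all 7 libraries. A count of 0 allows a level of up to 3 reads, which is between 0.0653 and 0.147 CPM depending on the library and covers counting error only.

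Ccl5, Ccl9, Ccl6, Ccl3 and Ccl4 form the second stretch on chromosome 11, of which Ccl4 lies on the plus and the others on the minus strand. Ccl3 (83647844 to 83649355) and Ccl4 (83662584 to 83664683), the macrophage inflammatory proteins 1 alpha and 1 beta, are neighbours. Ccl9 (83572919 to 83578636) and Ccl6 (83587882 to 83593087) are also neighbours, and both proteins bind Ccr1. The 150 bases before the start of Ccl9 (chr11:83578637-83578786, minus strand), Ccl6 (chr11:83593088-83593237, minus strand) and Ccl3 (chr11:83649379-83649528, minus strand) are shown since Ccl9 and Ccl6 had different patterns over the libraries despite lying next to each other, and since Ccl3 held the single interferon regulatory factor match. All spans are from GENCODE M21, and RefSeq places the start of Ccl3 slightly upstream of it.
Ccl9: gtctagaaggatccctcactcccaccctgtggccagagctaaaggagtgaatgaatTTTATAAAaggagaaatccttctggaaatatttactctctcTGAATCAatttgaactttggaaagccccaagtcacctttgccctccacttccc
Ccl6: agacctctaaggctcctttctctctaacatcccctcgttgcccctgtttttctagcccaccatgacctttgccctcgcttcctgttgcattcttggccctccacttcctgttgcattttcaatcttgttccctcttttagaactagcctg
Ccl3: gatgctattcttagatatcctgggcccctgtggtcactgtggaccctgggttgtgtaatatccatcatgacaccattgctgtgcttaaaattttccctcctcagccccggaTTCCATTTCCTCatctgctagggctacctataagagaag

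Ccl9 held TATAAA at -92, overlapping a match on the other strand at -94, and a further one on the other strand at -224 outside the stretch shown. It also held the AP-1 element at -53. Ccl6 held none of the motifs searched. In Ccl3 the interferon regulatory factor element at -39 overlapped the PU.1 core at -33, both on the strand opposite to the gene. No NF-kB or C/EBP form was matched in any of the 5 promoters.

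Ccl5, also called RANTES, attracts T cells and monocytes, among others through Ccr1, and showed the largest change of the members. It was at 2.59, 5.93 and 2.55 CPM in unlasered libraries 1, 2 and 3. It was at 30.6, 29.4, 15.5 and 14.6 CPM in lasered libraries 1 to 4. Every lasered library was thus well above the unlasered ones, and lasered 1 and 2 were above lasered 3 and 4. The mean rose 6.10-fold, from 3.69 ± 1.94 to 22.5 ± 8.64 CPM, with a log2 fold change of 2.32 (SE 0.34, interval 1.55 to 3.10, limma adjusted p = 0.00947). The call held without any single library. Markers of dendritic cells, another source of chemokines, summed over the 9 listed genes to 38.8, 25.1 and 48.8 CPM without and 164, 189, 55.0 and 37.4 CPM with the laser, with 1 of 8 tested genes, Ccl22, called higher. Lasered 1 and 2 were thus also the highest in this sum, whereas lasered 4 was within its unlasered range and lasered 3 slightly above it. Zbtb46, which was not called, made up 21.4, 14.9 and 36.6 CPM of the sum in unlasered libraries. Ccl22 and Cd209a, which passed the filter only through lasered libraries, were above all unlasered libraries in every lasered one. The groups overlapped for the other tested genes of this list. Markers of T and NK cells summed to 0.611 to 2.55 and 1.70 to 7.57 CPM, and the T cell gene Cd3e had at most 2 reads in a library. In the same list Gzma had 60, 80, 0 and 0 reads and Gzmb 28, 70, 0 and 0 reads in lasered libraries 1 to 4. Both had at most 2 reads in unlasered libraries and were highest in lasered 1 and 2, as was Ccl5. Klrb1c, the only tested gene of this list, was higher in every lasered library but not called (limma adjusted p = 0.154). The part of either cell type in the level of Ccl5 was not tested.

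Ccl4, an attractant of monocytes and T cells, was at 11.99, 9.67 and 9.11 CPM in unlasered libraries and at 24.1, 33.9, 37.3 and 26.1 CPM in lasered libraries. The groups lay clearly apart. The mean rose 2.96-fold from 10.3 ± 1.53 to 30.4 ± 6.27 CPM, with a log2 fold change of 1.47 (SE 0.20, interval 1.02 to 1.91, limma adjusted p = 0.00749). The call held without any single library.

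Ccl3, which binds Ccr1, was at 38.7, 19.0 and 25.2 CPM in unlasered libraries and 35.5, 55.8, 62.4 and 31.1 CPM in lasered ones. Unlasered 1 was above lasered 1 and 4, so the groups overlapped. The log2 fold change of 0.72 (SE 0.30, interval 0.04 to 1.40) did not pass the test (limma adjusted p = 0.195).

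Ccl9 was at 44.1, 28.3 and 35.3 CPM without and 105, 104, 76.0 and 40.4 CPM with the laser. Lasered 4 was below unlasered 1, whereas the other 3 lasered libraries were above all unlasered ones. The means of 35.9 ± 7.94 and 81.4 ± 30.5 CPM gave a ratio of 2.27, and the log2 fold change of 1.09 (SE 0.32, interval 0.37 to 1.81) did not pass the test (limma adjusted p = 0.0792). It passed without lasered 4 (log2 fold change 1.39, adjusted p = 0.0183).

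Ccl6 was at 63.4, 42.2 and 50.7 CPM in unlasered libraries and 57.0, 66.9, 39.3 and 31.3 CPM in lasered ones. Values of the groups were interspersed. The log2 fold change was -0.14 (SE 0.26, interval -0.73 to 0.46, limma adjusted p = 0.801), and its sign changed when lasered 4 (0.05) or unlasered 1 (0.01) was left out. E230016K23Rik, a processed transcript on the opposite strand, spans Ccl6 with 0 bases of shared exon, and it was also the gene whose pattern over the libraries was most like that of Ccl6. The library kit does not mark strand, so where the spans of this pair overlap, reads can be assigned only by their position in exons. The cause of their likeness was not tested.

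Ccl24, or eotaxin-2, is a ligand of Ccr3 that attracts eosinophils and is made by alternatively activated macrophages. It lies apart from the others on chromosome 5 (135569937 to 135573049, minus strand) and was the single member called lower. It was at 67.8, 65.0 and 44.0 CPM in unlasered libraries. It was at 18.0, 26.5, 25.9 and 29.4 CPM in lasered libraries. All lasered libraries were below all unlasered ones. The mean fell from 58.9 ± 13.02 to 25.0 ± 4.86 CPM, 2.36-fold lower after the laser, with a log2 fold change of -1.20 (SE 0.21, interval -1.69 to -0.72, limma adjusted p = 0.0164). Without lasered 2 the adjusted p was 0.0525, and the call held without any other single library. When unlasered 2, which had the highest sum of rod markers (17080 CPM), was left out, the log2 fold change was -1.12 (limma adjusted p = 0.0432). The sums of rod markers in unlasered 1 and 3 (1843 and 5015 CPM) were also above those of all lasered libraries (261 to 902 CPM). The part of rod RNA in the level of Ccl24 was not tested. Of 8 tested markers of border-associated macrophages, Pf4 (log2 fold change -0.89, adjusted p = 0.0285) and Ms4a7 (-0.82, adjusted p = 0.047) were also lower, and Siglec1 (1.88, adjusted p = 0.0187) was higher. Without lasered 1, 2 or 3 or unlasered 1 or 2, 0 of these 8 genes were called lower in limma, 1 was without lasered 4, and 0 were called higher without lasered 2 or 3. All 9 markers summed to 2351 to 2810 CPM without and 1793 to 1893 CPM with the laser. Their part in the level of Ccl24 was not tested.

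**Figure D2:**
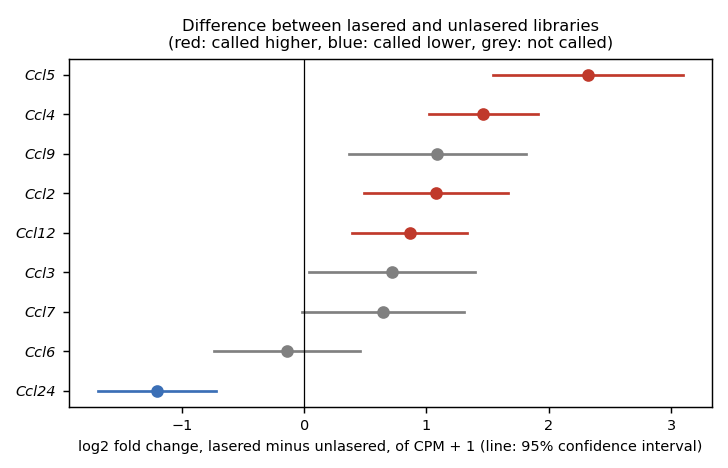
Log2 fold change of log2(CPM + 1), lasered minus unlasered (horizontal axis), with its 95% confidence interval from limma for the 9 tested members, ordered by size. Ccl5 had the largest positive value (2.32) and Ccl24 the only negative value whose interval lay below 0 (-1.20).

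Levels of different genes were compared per kilobase (kb) of exon. In unlasered libraries Ccl12 led with a mean of 136 ± 14.5 CPM per kb, above Ccl24 at 45.5 ± 10.1 CPM per kb, and the ranges of both did not overlap. Ccl24, Ccl3 (36.1 CPM per kb) and Ccl6 (29.0 CPM per kb) followed with overlapping ranges between neighbours in the order. Below these were Ccl4 (15.5) and Ccl9 (11.8 CPM per kb), which overlapped each other, and then Ccl2 (4.23), Ccl5 (3.85) and Ccl7 (3.14 CPM per kb), in which neighbours overlapped too.

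In lasered libraries Ccl12 was again first at 254 ± 61.1 CPM per kb, above Ccl3 at 60.3 ± 19.9 CPM per kb without overlap. The levels of Ccl4 (46.0), Ccl6 (27.1), Ccl9 (26.7), Ccl5 (23.5) and Ccl24 (19.3 CPM per kb) followed, each overlapping its neighbours in the order. Ccl2 (9.80) and Ccl7 (5.57 CPM per kb) came last, overlapping each other and below Ccl24 without overlap. Ccl24 thus moved from the second to the seventh place and Ccl5 from the eighth to the sixth.

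**Figure D3:**
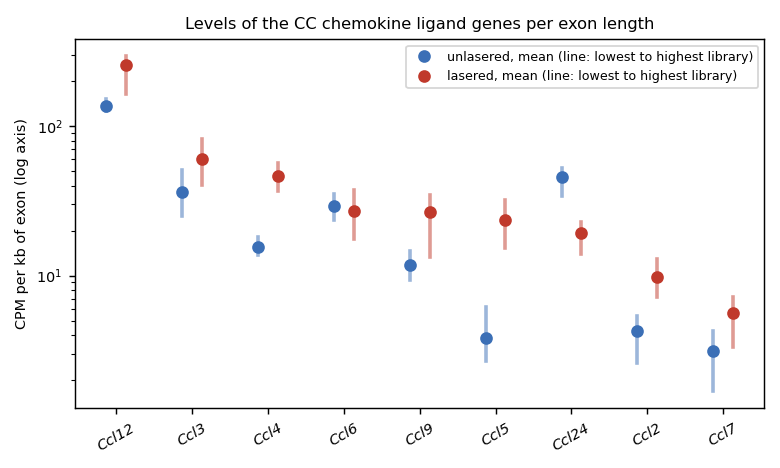
Mean level in CPM per kb of exon (vertical log axis) of the 9 members with reads, in order of the lasered mean; lines run from the lowest to the highest library. Ccl12 lay above all others in both groups, and Ccl24 was the one gene whose lasered range lay below its unlasered range.

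The sum of Ccl2, Ccl7, Ccl12 and Ccl8 was 80.3 ± 9.11 CPM in unlasered libraries and 152 ± 34.2 CPM in lasered ones. The sum of Ccl5, Ccl9, Ccl6, Ccl3 and Ccl4 was 130 ± 28.4 and 229 ± 62.1 CPM, respectively. All 10 members together had 319, 246 and 241 CPM without and 429, 486, 434 and 275 CPM with the laser, so that lasered 4 lay among the unlasered libraries in this sum. Ccl12 made up 27.3% ± 1.43 of the sum of CPM in unlasered and 33.5% ± 1.87 in lasered libraries.

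Within the second stretch, neighbours did not keep a constant ratio. These pairs were chosen after their values were seen, and the ratios are given without a test. The ratio of Ccl4 to Ccl3, each in CPM per kb, was 0.360, 0.589 and 0.420 in unlasered and 0.788, 0.706, 0.694 and 0.977 in lasered libraries. The ratio of Ccl9 to Ccl6 was 0.410, 0.395 and 0.410 in unlasered and 1.09, 0.916, 1.14 and 0.761 in lasered libraries. Both ratios were higher in every lasered library, including lasered 4, in which Ccl9 and Ccl3 themselves were within the unlasered range. The ratio of Ccl7 to Ccl2 was 0.653, 0.353 and 1.63 in unlasered and 0.695, 0.732, 0.560 and 0.341 in lasered libraries, and these overlapped.

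**Figure D4:**
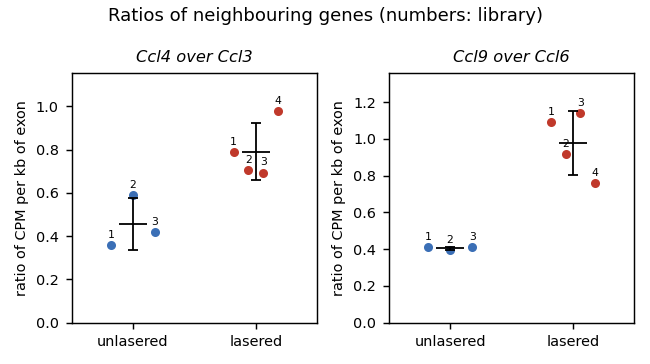
Ratio of the levels in CPM per kb of exon (vertical axis, from 0) of Ccl4 over Ccl3 and of Ccl9 over Ccl6 in each library, with mean and SD. The lowest lasered ratios, 0.694 and 0.761, lay above the highest unlasered ratios, 0.589 and 0.410.

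The members differed in how similar their patterns were. As a measure of likeness, the log2(CPM + 1) values of each gene were centred and divided by their SD over the 7 libraries, and the mean absolute difference between 2 genes was taken. Among members, Ccl9 and Ccl12 (0.248 SD) and Ccl4 and Ccl12 (0.277 SD) were most alike. Among tested genes with a mean of at least 10 CPM, Ccl5 was closest to Xaf1 (0.070 SD), Gm8623 (0.073 SD) and Gm8624 (0.094 SD), and Ccl12 to Actg1 (0.087 SD). Ccl4 was closest to AB124611 (0.103 SD), Ccl9 to Ms4a4a (0.105 SD), Ccl24 to Pigh (0.109 SD), Ccl6 to E230016K23Rik (0.111 SD), Ccl7 to Cep152 (0.145 SD), Ccl2 to Entpd7 (0.146 SD) and Ccl3 to Msl3 (0.191 SD). All libraries and their depths are shared by these profiles, and at least 10287 genes were searched for each member, so the closest genes are a description.

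Most other CC ligands were near or at the limit of detection. Of 13 further ligand genes, 3 passed the filter and 1, Ccl22, a ligand of Ccr4 made by dendritic cells and macrophages, was called higher. Ccl22 passed the filter only through its lasered libraries, so it was tested only because it was high there. Ccl22 was at 0.196, 0.0292 and 0.0555 CPM in unlasered libraries and 18.1, 36.4, 8.89 and 3.53 CPM in lasered ones (log2 fold change 3.62, limma adjusted p = 0.0132). Ccl17, the other Ccr4 ligand, had 0 reads in unlasered libraries and 0.408, 11.9, 4.53 and 0 CPM in lasered libraries, and was not tested. Ccl25, best known from thymus and gut, was at a mean of 24.2 and 20.7 CPM (adjusted p = 0.919), and Ccl20 had 0 reads in all libraries.

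Of 15 listed CC receptors and decoy receptors, 10 were tested and 1 was called, Ccr1. At an unadjusted p under 0.05 there were 3 higher receptor genes, and DESeq2 called 3 higher and edgeR 1. Ccr1, the receptor of Ccl3, Ccl5, Ccl6, Ccl7 and Ccl9, was at 63.6, 106 and 94.9 CPM without and 555, 464, 493 and 194 CPM with the laser. Its lowest lasered library, again lasered 4, was above all unlasered ones (log2 fold change 2.19, SE 0.35, limma adjusted p = 0.0115).

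Ccr2, the receptor of Ccl2, Ccl7 and Ccl12 and a marker of monocytes, was at 5.63, 6.37 and 14.2 CPM without and 81.5, 128, 19.7 and 7.57 CPM with the laser. Lasered 4 was within the unlasered range, and the adjusted p was 0.186. Ccr7, which guides dendritic cells to lymph nodes, was at 4.16, 0.263 and 0.0278 CPM in unlasered libraries and 74.8, 68.5, 5.34 and 3.10 CPM in lasered ones (adjusted p = 0.103). Lasered 1 and 2 were thus the highest in Ccr2, Ccr7 and Ccl22, as they were in Ccl5, Ccl6 and Ccl9. The other members did not share this order. Ccl2, Ccl3, Ccl4 and Ccl7 were highest in lasered 3 and Ccl24 in lasered 4, and Ccl12 was nearly equal in lasered 2 and 3. Ccr3, the receptor of Ccl24, was at 9.79, 4.73 and 13.6 CPM in unlasered libraries and 2.90, 7.71, 7.08 and 8.21 CPM in lasered ones, and these overlapped (adjusted p = 0.548).

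**Figure D5:**
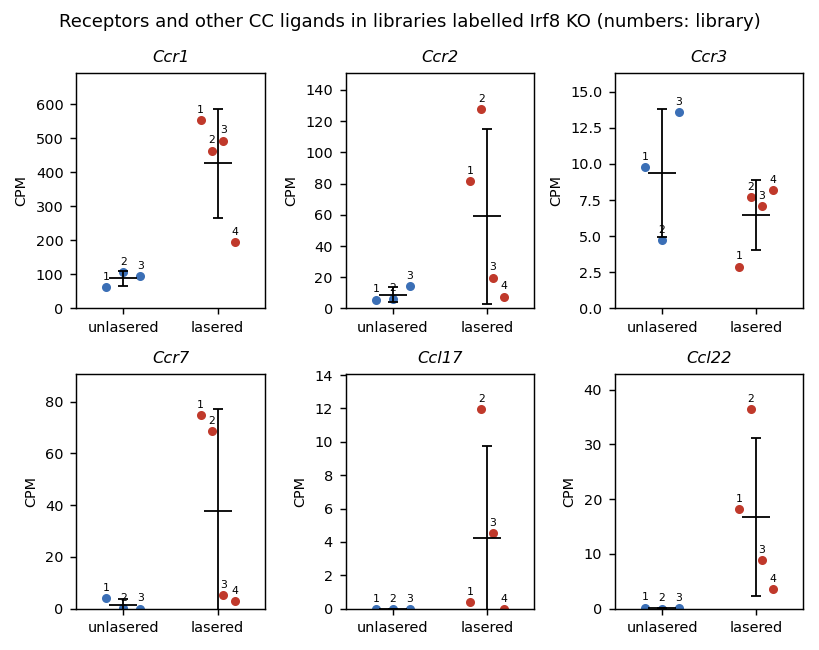
Level in CPM (vertical axis, from 0) of 4 CC receptor genes and of Ccl17 and Ccl22 in each library, with mean and SD; bars that would extend below 0 end at the axis. Ccr1 and Ccl22 were higher in every lasered library, and Ccr2 and Ccr7 were high mainly in lasered 1 and 2.

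Genes of pathways known to induce CC ligands were counted in the same fit. Of 13 tested interferon response genes, 5 were higher (Irf7, Ifit1, Ifit3, Rsad2 and Ifi204) and the median log2 fold change was 0.83. In limma and edgeR 0 were lower, although 1 was at an unadjusted p under 0.05 and in DESeq2. The count of 5 depended on single libraries and was 1 without lasered 2 or lasered 3, 2 without lasered 1 or unlasered 2, and 8 without lasered 4. Irf7, a master regulator of type I interferon genes, had the largest change among these 5 (log2 fold change 1.80, limma adjusted p = 0.00265), from 70.9, 85.5 and 74.1 CPM to 337, 316, 239 and 206 CPM. Its lasered libraries, like those of Ccl5, were all above the unlasered ones, with the highest values in lasered 1 and 2. Other called genes of this list differed in this order. Ifit1 and Rsad2 were highest in lasered 3, and Ifit3 and Ifi204 were higher in lasered 3 than in lasered 2. The part of interferon signalling in the level of Ccl5 was not tested.

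Of 14 tested genes of the NF-kB pathway and inflammatory cytokines, 2 were higher, Il1a (log2 fold change 1.25, limma adjusted p = 0.0446) and Relb (0.54, adjusted p = 0.0477) with a median of 0.18. In this list 0 were lower in limma and edgeR and at an unadjusted p under 0.05, and 1 was lower in DESeq2. Both calls were close to the threshold and both were lost without lasered 1, 2 or 3 or unlasered 1 or 2. Tnf, an inducer of Ccl2, was at 13.02, 5.43 and 9.33 CPM without and 7.79, 6.77, 11.1 and 5.74 CPM with the laser (adjusted p = 0.778). Of 14 tested immediate early genes, 1 was higher (Egr2) and 2 were lower (Ier3 and Nr4a1). The call of Egr2 was lost in edgeR, with a pseudocount of 0.1 CPM and when any library other than unlasered 1 was left out. The count of 2 lower genes fell to 0 without lasered 3 and to 1 without lasered 1, lasered 2 or unlasered 2.

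Of 8 tested alternative activation genes, the setting in which macrophages are known to make Ccl24, 0 passed the limma test in either direction, with a median log2 fold change of 0.09. At an unadjusted p under 0.05 there was 1 gene in each direction, edgeR called 0, and DESeq2 called 1 higher. Mrc1, the mannose receptor, was at 520, 562 and 779 CPM in unlasered libraries and 386, 295, 453 and 519 CPM in lasered ones (log2 fold change -0.59, limma adjusted p = 0.131). Lasered libraries were below unlasered ones for Mrc1 as for Ccl24, though the difference in Mrc1 did not pass the test. Il4ra of the same list went the other way (log2 fold change 0.42, limma adjusted p = 0.139). Arg1 did so too (2.50, adjusted p = 0.346), and the groups overlapped for both. Markers of eosinophils, cells that Ccl24 attracts, summed to 24.9 to 69.7 CPM without and 42.4 to 52.1 CPM with the laser, so their ranges overlapped. Of 4 tested, Siglecf, which activated macrophages can also express, was higher (log2 fold change 1.21, limma adjusted p = 0.0129), and the eosinophil granule gene Prg2 had at most 2 reads in a library.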

How the data were processed

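RNA-seq of sorted rMG was analysed in 3 unlasered and 4 lasered samples labelled Irf8 KO, grouped and numbered by their labels. The libraries were made by the authors with a low-input kit that does not mark strand. Per the labels and the methods, reads were trimmed with cutadapt, deduplicated with FastUniq, mapped with bowtie2 and counted per gene with HTSeq using Ensembl annotation version 90, and the processing notes name GRCm38. Although the deposited columns carry the name TPM, their values behave as CPM, since all columns have the same sum and each consists of whole multiples of a single step. Whole reads were recovered for 100% of values (tolerance 0.0001 CPM).

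For the comparison of the groups, log2(CPM + 1) values of 17496 genes (minimum of 1 CPM in 3 or more libraries) were fitted with the package limma 3.58.1 (trend and robust options, statmod 1.5.0, R 4.3.3). Such fold changes understate changes of low genes. Tests were two-sided, adjusted by the Benjamini-Hochberg method and called at an adjusted p under 0.05, with limma, edgeR 4.0.16 and DESeq2 1.42.0 also run on recovered reads. Because the samples are separate pools of mice, the p-values measure the spread between pools. The fit was tested on simulated data. Figures were drawn with matplotlib 3.10.9 and tables made with pandas 2.3.3 and numpy 2.4.6 under Python 3.11.15.

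All 10 members are named, and of each gene list those called, up to 5 with the largest change and the most abundant, while any detected ligand or receptor could be named. The members and lists were chosen with earlier results of these data known. Granule genes and other markers given for their low reads, Tnf, Cd3e, Gzma, Gzmb, Ly6c2, Cd163 and Itgae were named after their values were seen. How reads mapping to several genes were treated is not given in the sources used here, and near-identical ligand genes such as Ccl21a and Ccl21b are therefore uncertain.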

Additional observations from a re-analysis of the deposited data

Results flagged for a closer look

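In the 4 lasered libraries, Arg1 was at 138 CPM in lasered 2, a value separated from the nearest other library by 0.848 of the range of the group, and Irf8 was at 582 CPM in lasered 4, separated by 0.897 of the range. Both exceed the critical value of Dixon's test for 4 samples. Of 62 levels, sums and ratios examined in this way 2 did so, and chance alone singles out about 1 in 20 groups. None of the CC ligand genes was among them.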

How the results depend on the processing

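Of the 9 members, 4 were called higher and 1 lower, and the counts were 2 and 1 with a mean of at least 10 reads as the filter, with no filter on low values and with voom. Leaving out each library in turn gave 2 to 4 higher and 0 to 1 lower (0 without lasered 2). With the replicate block, in which lasered 4 has no partner, 0 members were called higher and 0 lower, and 2 genes were higher and 1 lower among all genes, with 3395 genes at an unadjusted p under 0.05 in limma. Same-numbered libraries did not deviate together (r of -0.183, -0.126 and -0.023 over genes), and pairs with other numbers had an r of -0.057 to 0.205. Since the deviations were centred within groups of 3 and 4 libraries, these values cannot exclude a shared batch. The labels give only the number. Over all genes, 676 were higher and 537 lower. These became 1177 and 1141 with DESeq2, 662 and 604 with edgeR, 212 and 173 with no filter, and 149 to 850 and 113 to 556 with a library left out. In edgeR 3 members were called higher, and the adjusted p was 0.053 for Ccl2, 0.0518 for Ccl9 and 0.0309 for Ccl12. With DESeq2 and with median-of-ratios scaling 5 members were called higher, Ccl9 included (adjusted p of 0.00192 and 0.043). The log2 fold change of Ccl6 reversed, to 0.047 with the replicate block, 0.047 without lasered 4 and 0.01 without unlasered 1, and ranged from -0.31 to 0.047 with a library left out. The other 8 tested members kept their direction in all 16 settings. The cause of these changes was not tested, except that with no filter 38566 genes entered the adjustment. Reads listed jointly could not be left out, since they are merged into 1 value per gene, and no member held any. Medians in place of means were also run for the levels. Ccl7 and Ccl2 in unlasered libraries rest on 46 to 185 reads, which limits their precision.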

Other observations

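Lasered 1 and 2 differed from lasered 3 and 4 in some genes of dendritic cells and alternative activation. These genes were picked after their values were seen, and other genes of both lists did not follow. Itgae of the dendritic cell list was highest in lasered 3. In the alternative activation list Il4ra and Chil3 were also higher in lasered 1 and 2 than in lasered 3 and 4. Mrc1 was lower there, and values of Cd163 and Il13ra1 were interspersed. Arg1, which alternatively activated macrophages express, was at 21.1 and 138 CPM in lasered 1 and 2 and at 0.218 and 0.673 CPM in lasered 3 and 4, against 1.47, 0.263 and 0.250 CPM in the unlasered libraries. Its log2 fold change of 2.50 had an SE of 1.44 and did not pass the test (limma adjusted p = 0.346). Flt3, a growth factor receptor of dendritic cells, was at 15.5 and 27.5 CPM in lasered 1 and 2 and at 1.74 and 3.42 CPM in lasered 3 and 4, whereas Zbtb46, another gene of these cells, was at 23.5 to 26.4 CPM in all 4 (adjusted p = 0.84). Cd209a, a lectin of dendritic cells, was at 7.61, 8.93, 2.88 and 0.242 CPM in lasered libraries 1 to 4 and at most at 0.0979 CPM in unlasered ones (adjusted p = 0.0825). Among neutrophil markers, Cxcr2 was higher after the laser (log2 fold change 2.43, adjusted p = 0.0305), with 5.48, 5.03, 12.9 and 1.05 CPM in lasered libraries, and 1 of the 2 tested genes of that list was thus called. With at most 0.147 CPM in unlasered libraries, Cxcr2 passed the filter only through lasered ones. The call was lost with voom, with no filter on low values and when any library other than lasered 4 was left out.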
